A study of Mus musculus with 5 samples.

Results

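The Cajal-Retzius cell genes described here are 10 genes chosen by symbol, namely Reln, Trp73, Lhx1, Lhx5, Calb2, Ebf2, Ebf3, Car10, Cacna2d2 and Ndnf. Each matched 1 row of a count table with 27919 rows that carry a gene symbol (56196 rows in all), and all 10 had enough counts to be tested. The table comes from RNA-seq of the forebrain of untreated C57BL/6 mouse embryos at E12.5, with 2 samples labelled wild type and 3 labelled EedcKO, which the submitters describe as littermates. EedcKO is the submitters' name for mice with a deletion of Eed, a core subunit of the Polycomb repressive complex that methylates histone H3. The Cre driver, the deleted part of the gene and any allele that the controls carry are not named in the labels. Nor do the labels say that each sample is a separate embryo, so p-values measure only the spread between these samples, which may be partly technical.

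Cajal-Retzius cells are among the earliest neurons of the cerebral cortex. They arise at the borders of the pallium, such as the cortical hem, the septum and the thalamic eminence, and spread over the cortical surface, where they secrete reelin, the glycoprotein that directs the layering of later neurons. None of the 10 genes is exclusive to these cells. Lhx1 and Lhx5 also mark parts of the hypothalamus and prethalamus, and Calb2, Reln and Ndnf also mark other neurons. In bulk tissue, fewer cells of a type and less RNA per cell cannot be told apart.

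The results turn on the contrast between Lhx1, Lhx5 and Car10 on one side and Reln on the other, and promoters of 3 of these 4 genes were read from RefSeq's table for GRCm38.p6 (the assembly also called mm10). The stretches below end at or 1 base before an annotated start, lie in no GENCODE M21 exon, read 5′ to 3′ on the gene's strand, and have each CG dinucleotide in capitals. They are shown because CG-rich promoters are the usual docking sites of Polycomb complexes. Both Car10 starts are RefSeq's and lie downstream of the gene's first base in GENCODE M21 (93098028).
Reln, chr5:22344706-22344855, minus strand: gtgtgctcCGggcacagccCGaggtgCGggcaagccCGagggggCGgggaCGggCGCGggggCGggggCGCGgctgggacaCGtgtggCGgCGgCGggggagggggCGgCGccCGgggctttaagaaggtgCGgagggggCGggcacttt
Lhx1, chr11:84525536-84525659, minus strand: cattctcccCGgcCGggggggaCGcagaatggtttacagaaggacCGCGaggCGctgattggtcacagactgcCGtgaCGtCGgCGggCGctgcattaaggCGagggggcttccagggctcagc
Car10, first start, chr11:93098216-93098365, plus strand: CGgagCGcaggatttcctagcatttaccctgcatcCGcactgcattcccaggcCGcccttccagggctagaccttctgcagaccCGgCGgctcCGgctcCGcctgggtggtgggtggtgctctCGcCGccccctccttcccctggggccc
Car10, second start, chr11:93099140-93099289, plus strand: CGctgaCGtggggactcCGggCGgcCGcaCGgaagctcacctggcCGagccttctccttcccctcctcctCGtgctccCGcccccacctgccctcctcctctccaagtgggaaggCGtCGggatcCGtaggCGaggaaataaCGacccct

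Over the full 250 bases before each start, Reln had 37 CG dinucleotides, Lhx1 26, and Car10 13 and 21 at its 2 starts. The median over 32851 such windows of all genes was 6. Windows were found for 6 of the 10 members, and among the others Ebf3 had 43 and Cacna2d2 34, while Trp73 had 31 at its upstream start and 6 at its internal start. CG content was thus above the median at each start found except the internal one of Trp73, both in genes that fell and in Reln, which did not pass the test. The homeodomain core TAATTA and the palindromic EBF consensus, each identical on both strands, were in none of these windows (4.84% and 0.779% of all windows held them). The E-box CANNTG, also identical on both strands, occurred in the windows of Reln, of both Trp73 starts and of the second Car10 start (66.2% of all windows). A match is a description of letters and not a binding site.

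The libraries held 4820630 to 5026381 counts. Levels are given as CPM, which are counts divided by a TMM-scaled library size, and where a gene has 0 counts the upper limit is 3 counts, or 0.610 to 0.632 CPM. Eed itself, which the design targets, went against 1 label. Its count was 404 in wild type 1 but only 238 for the library labelled wild type 2, beside 251, 233 and 247 for EedcKO 1, 2 and 3. HOX genes, which Polycomb keeps silent in the forebrain, likewise summed to 2 counts in wild type 1, against 134 for the library labelled wild type 2 and 62 to 184 over the EedcKO libraries. The Eed count covers the whole gene and may include exons outside the deletion. Lhx8 went with the label, with 407 and 328 counts in the wild-type libraries and 35, 1 and 4 in EedcKO. So did Fezf1, with 333 and 459 against 87, 51 and 43. Across genes, the library labelled wild type 2 differed least from wild type 1 (chi-square per gene 8.06, against 8.88 to 9.79 with EedcKO). Wild type 1 itself differed least from EedcKO 1 (7.76). Whether the label is right was not tested. Xist and Y-linked counts marked EedcKO 2 and 3 as male and the other 3 libraries as female. The telencephalic transcription factors Emx1 and Dlx2 had counts in every library, but at levels that differed by group. Emx1 had 166 and 322 counts in the wild-type libraries and 414, 470 and 559 in EedcKO. Dlx2 had 959 and 909 against 735, 633 and 666. Neither passed the test below (log2 fold change 0.98 and -0.46, edgeR adjusted p = 0.0940 and 0.0553).

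Of the 10 genes, 5 fell in EedcKO and none rose, with edgeR's quasi-likelihood test and adjustment over all 13989 genes tested. They were Car10, Lhx5, Lhx1, Cacna2d2 and Ebf3. Among all tested genes 2.17% passed as lower and 1.04% as higher. The groups did not overlap for 6 of the 10, all lower in EedcKO (17.4% of all tested genes were lower with no overlap). The sixth was Trp73, which did not pass. It had 293 counts in both wild type 1 and EedcKO 2, so its separation rests on the library scaling alone. The median log2 fold change of the 10 genes was -0.66, against 0.01 over all tested genes. The 10 genes and the lists below were chosen with earlier results of these data known. The shares and medians of all genes are therefore given for scale and test no excess. Without the library labelled wild type 2 (with Eed at the EedcKO level), 4 of the 10 passed as lower (4.12% of all genes), and without wild type 1, 6 did (4.02%). The count was 4 without EedcKO 1 (1.19%), 2 without EedcKO 2 (0.455%) and 0 without EedcKO 3, where edgeR called no gene in the whole table, though 5 of the 10 and 1887 genes in all had an unadjusted p under 0.05. With embryo sex as a covariate, edgeR again called no gene, with 5 of the 10 and 1611 genes in all at an unadjusted p under 0.05. No wild-type library was male, so that fit compares EedcKO 1 with the wild type.

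**Figure D1:**
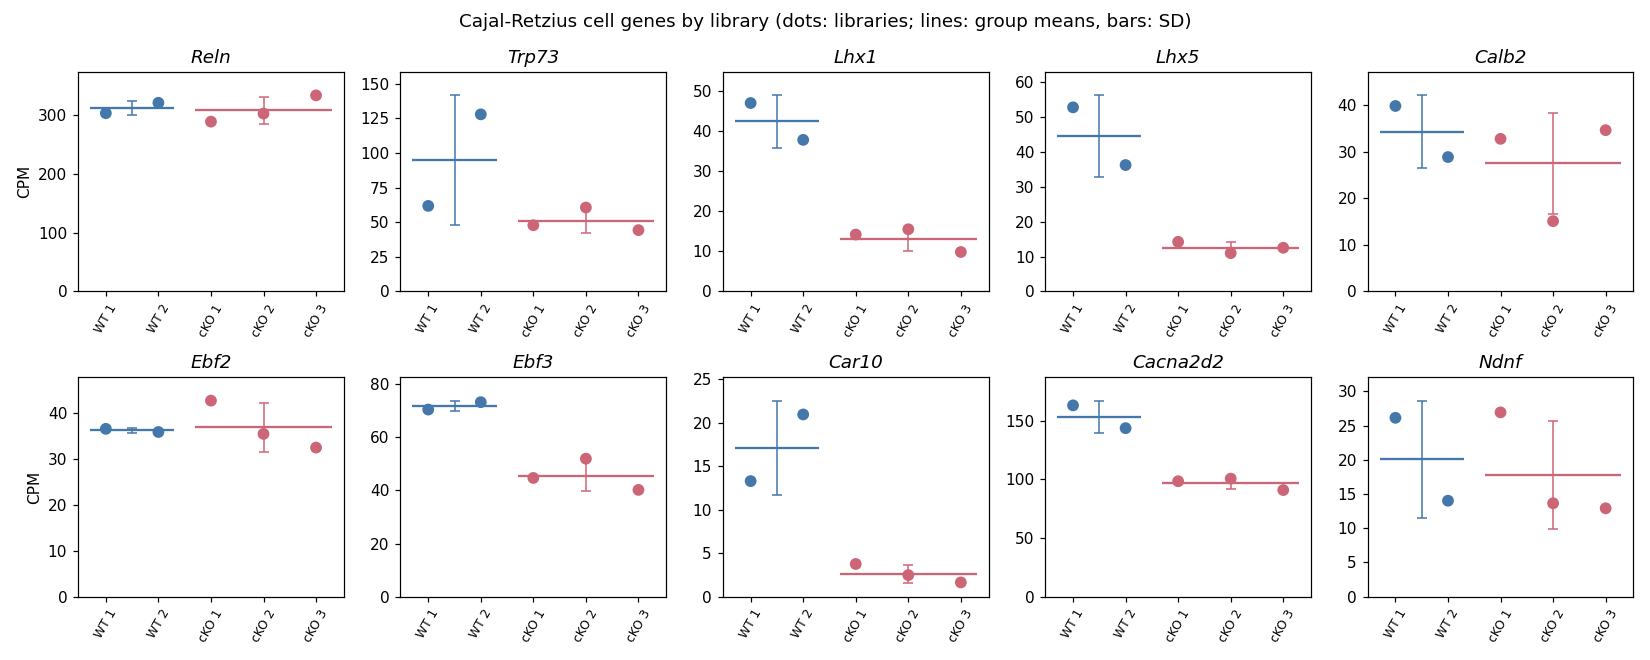
Each panel plots 1 gene's CPM (y axis, from 0) in the 2 wild-type libraries (blue) and the 3 EedcKO libraries (red), with lines at the group means and bars for the SD. Lhx1, Lhx5, Car10, Cacna2d2 and Ebf3 show red dots wholly below the blue ones, Reln and Ebf2 show level groups, and the Trp73 panel shows the library labelled wild type 2 far above all others at 127.9 CPM.

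Lhx1 and Lhx5 encode closely related LIM-homeodomain transcription factors, and both were lower in every EedcKO library than in either wild-type library. Lhx1 (chromosome 11, 84518284 to 84525535, minus strand, mm10) had 47.0 CPM in wild type 1, 37.8 CPM for the library labelled wild type 2, and 14.2, 15.5 and 9.84 CPM in EedcKO 1, 2 and 3. It fell 3.21-fold (log2 fold change -1.68, SE 0.21, and edgeR adjusted p = 0.0112). The highest EedcKO value thus stayed below both wild-type values, and the wild-type libraries differed by 1.24-fold.
Lhx5 (chromosome 5, 120431699 to 120441223, plus strand) had 52.7 and 36.2 CPM in the same wild-type libraries and 14.2, 11.0 and 12.51 CPM in EedcKO 1, 2 and 3. It fell 3.53-fold (-1.82, SE 0.20, edgeR adjusted p = 0.00937), with the 3 EedcKO libraries close together. Without the library labelled wild type 2 (with Eed at the EedcKO level), the log2 fold changes were -1.83 for Lhx1 and -2.06 for Lhx5, and both still passed. Without EedcKO 3 neither passed (edgeR adjusted p = 0.0781 and 0.0935), at log2 fold changes of -1.51 and -1.82.
The noncoding gene Lhx1os, transcribed from the opposite strand beside Lhx1, had 29 and 28 counts in the wild-type libraries and 11, 19 and 11 in EedcKO 1, 2 and 3. The antisense gene Gm27199, whose exons overlap those of Lhx5, had 25, 11, 3, 4 and 5. No source used here says whether counting used strand, so reads of Lhx5 and of Gm27199 cannot be told apart. The same limit holds for Reln, Ebf2, Ebf3 and Cacna2d2. Their exons overlap those of the antisense genes Gm10475, Gm10860, Gm45278 and Gm17141, in that order.

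Car10 and Cacna2d2 encode proteins of the neuronal surface, and both fell. Car10 (chromosome 11, 93098028 to 93601749, plus strand) encodes a secreted carbonic anhydrase-related protein that lacks the enzyme's activity and binds neurexins. Its counts were 63 for wild type 1 (with a Poisson interval at 95% of 48.4 to 80.6), 103 for the library labelled wild type 2, and 18, 12 and 8 for EedcKO 1, 2 and 3. As CPM these were 13.3, 20.9, 3.76, 2.48 and 1.64, so the groups stood well apart. The 6.47-fold decrease (log2 fold change -2.69, SE 0.37, edgeR adjusted p = 0.0156) had the lowest log2 fold change of the 10 genes. It was -2.32 without the library labelled wild type 2 (with Eed at the EedcKO level), and no longer passed without EedcKO 2 (edgeR adjusted p = 0.0653) or EedcKO 3 (0.113).
Cacna2d2 (chromosome 9, 107399612 to 107529343, plus strand), an auxiliary subunit of voltage-gated calcium channels, had 163 and 144 CPM in the wild-type libraries and 98.3, 101 and 90.8 CPM in EedcKO. The spread within each group was small, and the decrease was 1.59-fold (-0.67, SE 0.10, edgeR adjusted p = 0.0166). The call held without the library labelled wild type 2 (-0.75), and was lost without EedcKO 2 (edgeR adjusted p = 0.0773) or EedcKO 3 (0.119).

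The paralogs Ebf2 and Ebf3, helix-loop-helix transcription factors of early neurons, had different values in this comparison. Ebf3 (chromosome 7, 137193673 to 137314445, minus strand) had 70.4 and 73.2 CPM in the wild-type libraries and 44.7, 51.9 and 40.2 CPM in EedcKO 1, 2 and 3. It fell 1.57-fold (log2 fold change -0.65, SE 0.12, edgeR adjusted p = 0.0384), and the groups did not overlap. This call was lost on leaving out the library labelled wild type 2, EedcKO 1, EedcKO 2 or EedcKO 3 (edgeR adjusted p = 0.0524, 0.108, 0.0659 and 0.156).
Ebf2 (chromosome 14, 67233292 to 67430918, plus strand) had 36.5 and 35.8 CPM in the wild-type libraries and 42.6, 35.4 and 32.4 CPM in EedcKO. The EedcKO values lay on both sides of the wild-type ones. Its log2 fold change was 0.03 with a 95% interval of -0.31 to 0.37 (edgeR adjusted p = 0.958). The difference between the 2 genes' fold changes was not tested.

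Reln, the gene of reelin itself, was level across the libraries. Reln (chromosome 5, 21884454 to 22344702, minus strand) had 303 CPM in wild type 1, 321 CPM for the library labelled wild type 2, and 289, 302 and 333 CPM in EedcKO 1, 2 and 3. The groups overlapped, with both the lowest and the highest value in EedcKO. Its log2 fold change was -0.02, with a 95% interval of -0.26 to 0.22 (edgeR adjusted p = 0.960), and 0.03 (-0.21 to 0.27) without the library labelled wild type 2.
Reln was the most abundant of the 10 genes in counts, above 97.9% of all tested genes. Abundant genes may be compressed in the deposited table, where no gene took more than 0.130% of a library. Of the 290 genes at or above the level of Reln 6 passed the test, beside 448 of all 13989 tested. Of the 6, 3 were lower and none of these by 1 or more on the log2 scale. The lowest log2 fold change among the 290 was -1.24, in a gene that did not pass. Such compression, and any part of it in the Reln values, was not tested.

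Trp73, which encodes p73, a transcription factor of the p53 family that marks and sustains Cajal-Retzius cells, stood apart in 1 library. Trp73 (chromosome 4, 154056253 to 154140208, minus strand) had 293 counts in wild type 1, 629 for the library labelled wild type 2, and 229, 293 and 216 in EedcKO 1, 2 and 3. As CPM these were 61.8, 127.9, 47.8, 60.6 and 44.3, so wild type 1 lay just above EedcKO 2 and the library labelled wild type 2 lay far above all others. The log2 fold change was -0.90 (SE 0.30, 95% interval -1.61 to -0.19), which did not pass adjustment over all genes (edgeR adjusted p = 0.184).
The value rested on the library labelled wild type 2 (with Eed at the EedcKO level). Without it the log2 fold change was -0.27 (-0.67 to 0.13, edgeR adjusted p = 0.464), and without wild type 1 it was -1.34 (edgeR adjusted p = 0.00443). DESeq2 called the gene with all 5 libraries (-0.90, DESeq2 adjusted p = 0.0376). The counts do not separate the long and the amino-terminally shortened forms of p73, which start at different promoters, nor reads of the antisense gene Trp73os, whose exons overlap.

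Calb2 and Ndnf varied within both groups and did not pass. Calb2 (chromosome 8, 110137502 to 110168210, minus strand), which encodes the calcium-binding protein calretinin, had 39.8 and 28.9 CPM in the wild-type libraries and 32.8, 15.1 and 34.6 CPM in EedcKO 1, 2 and 3. The low value was in EedcKO 2, and the other EedcKO libraries lay between the wild-type ones. Its log2 fold change was -0.32 (95% interval -1.12 to 0.48, edgeR adjusted p = 0.716), and -0.03 without EedcKO 2.
Ndnf (chromosome 6, 65671590 to 65712326, plus strand), which encodes a secreted neurotrophic factor, had 26.1 CPM in wild type 1 and 26.9 in EedcKO 1, against 14.0 CPM for the library labelled wild type 2 and 13.7 and 12.9 in EedcKO 2 and 3. High and low libraries thus occurred in both groups. The log2 fold change was -0.17 (-1.09 to 0.75, edgeR adjusted p = 0.885), -0.54 without the library labelled wild type 2 and 0.33 without wild type 1.

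**Figure D2:**
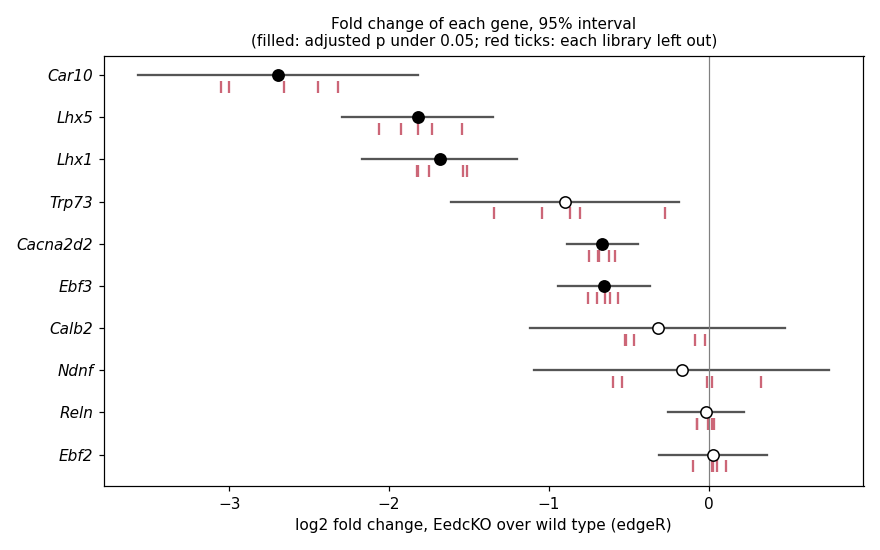
The x axis is the log2 fold change of EedcKO over wild type from edgeR, with its 95% interval, for each of the 10 genes in order of size; filled dots have an adjusted p under 0.05 and red ticks give the value with each library left out. The intervals of Car10, Lhx5, Lhx1, Cacna2d2 and Ebf3 lie below 0, Reln and Ebf2 have narrow intervals around 0, and the Trp73 ticks run from -1.34 to -0.27.

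Whether Reln and Trp73 followed Lhx1, Lhx5 and Car10 was asked with the ratio of counts within each library, which needs no library size. Reln over Lhx1 was 6.44 in wild type 1, 8.48 for the library labelled wild type 2, and 20.3, 19.5 and 33.9 in EedcKO 1, 2 and 3. Reln over Lhx5 was 5.75 and 8.86 in the wild-type libraries and 20.3, 27.6 and 26.6 in EedcKO. Reln over Car10 was 22.8 and 15.3 in the wild-type libraries and 76.8, 122 and 203 in EedcKO.
Every EedcKO ratio exceeded both wild-type ratios, so Reln did not go down with these 3 genes in any EedcKO library. The 3 genes were already lower in every EedcKO library, so any level gene would give this order. The ratios restate that contrast and add no separate evidence. The mean log2 ratio was higher in EedcKO by 1.68 against Lhx1, 1.79 against Lhx5 and 2.73 against Car10 (exact permutation test over libraries, two-sided, p = 0.2 for each, or 0.3 adjusted over 6 ratios). With 2 libraries against 3, p = 0.2 is the smallest that this exact test can give. Without the library labelled wild type 2 (with Eed at the EedcKO level), the 3 differences were 1.88, 2.10 and 2.44.

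For Trp73 the ratios depended on the partner and on the wild-type library. Trp73 over Lhx1 was 1.31 in wild type 1, 3.38 for the library labelled wild type 2, and 3.37, 3.91 and 4.50 in EedcKO 1, 2 and 3. Trp73 over Lhx5 was 1.17 and 3.53 in the wild-type libraries and 3.37, 5.53 and 3.54 in EedcKO. The library labelled wild type 2 thus lay among the EedcKO libraries for both, and wild type 1 lay below all others. The log2 ratios were higher in EedcKO by 0.89 and 0.99 (exact permutation test, two-sided, p = 0.4 for each, also when adjusted over 6 ratios). Without wild type 1 the differences were 0.20 and 0.19, and without the library labelled wild type 2 they were 1.57 and 1.79.
Trp73 over Car10 was 4.65 and 6.11 in the wild-type libraries and 12.7, 24.4 and 27.0 in EedcKO, with no overlap (1.93 on the log2 scale, exact permutation test, two-sided, p = 0.2, or 0.3 adjusted over 6 ratios). Against Car10, then, Trp73 was higher in all EedcKO libraries, by 2.13 without the library labelled wild type 2 and 1.73 without wild type 1.

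**Figure D3:**
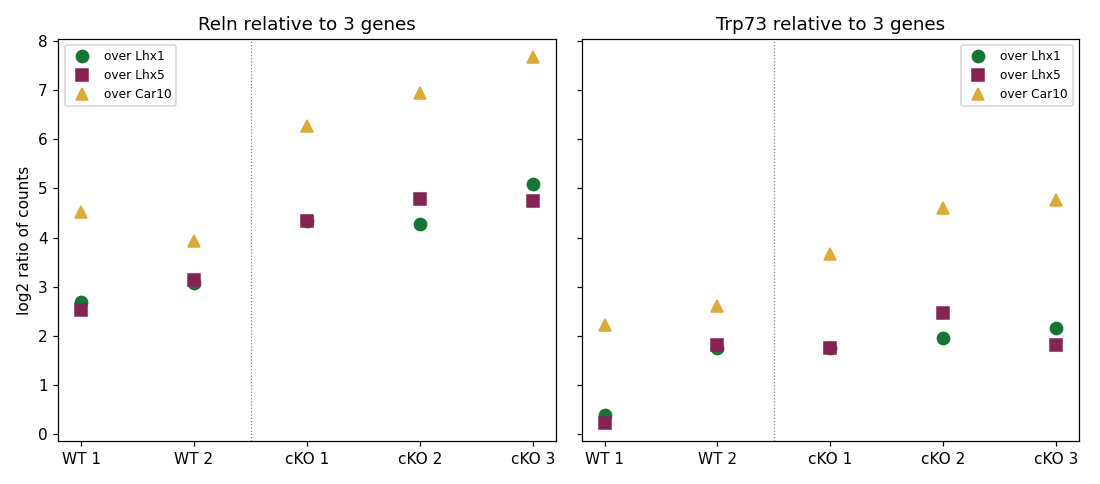
The y axis is the log2 ratio of counts of Reln (left) or Trp73 (right) to Lhx1 (circles), Lhx5 (squares) and Car10 (triangles) in each library on the x axis, with a dotted line between the groups. All Reln ratios are higher in EedcKO than in either wild-type library, whereas the Trp73 ratios to Lhx1 and Lhx5 in the library labelled wild type 2 sit at the EedcKO level.

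The shape of each gene's log2 CPM over the 5 libraries, centred on its mean, put Lhx1 and Lhx5 together. It put Reln apart from them, as it did many other genes. The root mean square difference between the profiles of Lhx5 and Lhx1 was 0.27 on the log2 scale, and Lhx1 ranked 25 of 13133 genes in likeness to Lhx5. Reln differed from Lhx5 by 0.89 and from Car10 by 1.31, where 42.9% and 46.0% of genes were nearer. Reln thus lay near the middle of both rankings. Trp73 differed from Lhx5 by 0.73 (9.56% of genes nearer) and from Reln by 0.53.
The 5 genes nearest to Lhx5 were Fam189a1, Dlk1, Dmrtb1, Nap1l5 and Nrsn2 (differences of 0.10 to 0.14), each of which passed as lower in EedcKO. Those nearest to Reln were the level genes Pgd, Stard5, Nup62, Ddx49 and Plscr3 (at most 0.02). Those nearest to Trp73 were Ace, Cdkl4, Lrrtm3, Pdgfa and Dnaaf3 (0.11 to 0.12), each highest in the library labelled wild type 2, as with Pdgfa at 36.2 CPM there and 11.5 to 15.1 in the other 4. The neighbours were chosen by these same profiles, so their shared direction or shared high library follows from the choice. These likenesses describe 5 libraries that have similar depth and carry no test.

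Levels of different genes are compared per length, as the authors' TPM (abundance scaled by transcript length and by depth). In the wild-type libraries Calb2 averaged 94.7 ± 20.7 TPM (SD, n = 2), Cacna2d2 92.7 ± 7.66, Trp73 82.5 ± 41.2, Lhx5 79.4 ± 20.3 and Reln 63.2 ± 2.98 TPM. Among these 5 genes, neighbours in the order did not differ beyond their spread. Lhx1 followed at 50.1 ± 7.33 TPM, Ebf3 at 37.4 ± 1.29, Ebf2 at 25.1 ± 0.162, Car10 at 12.96 ± 4.19 and Ndnf at 9.54 ± 4.01 TPM.
In EedcKO Calb2 (76.4 ± 30.0 TPM, SD, n = 3) and Reln (62.8 ± 4.17) led, with Cacna2d2 at 58.8 ± 3.41 and Trp73 at 44.5 ± 7.52. Lhx5 stood at 22.6 ± 3.05 TPM, near Ebf3 (23.9 ± 3.15) and Ebf2 (25.7 ± 3.89), and Lhx1 at 15.7 ± 3.60. Car10 was the lowest at 2.00 ± 0.830 TPM.

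The receptors and intracellular partners of reelin mostly did not pass. Of 18 listed and tested genes 1 fell and none rose, and their median log2 fold change was 0.03. The gene that fell was Itga3, an integrin subunit (-0.75, SE 0.14, edgeR adjusted p = 0.0394), with 158 and 179 counts in the wild-type libraries and 111, 92 and 97 in EedcKO. It did not pass without the library labelled wild type 2, and the list had no call without EedcKO 1, 2 or 3 either, while without wild type 1 it had 1 decrease and 1 increase. The receptors Vldlr (-0.11) and Lrp8 (0.08) and the adaptor Dab1 (0.17) did not pass (edgeR adjusted p = 0.792, 0.841 and 0.367).

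Of 15 other genes linked to Cajal-Retzius cells or their neighbours, 4 fell and 1 rose. The nuclear receptor gene Nr2f2 had 1241 and 1203 counts in the wild-type libraries and 379, 490 and 284 in EedcKO (-1.67, SE 0.20, edgeR adjusted p = 0.0112). Mab21l1 (-1.30), the matrix proteoglycan Spock1 (-1.17) and the transcription factor Barhl2 (-0.79) fell as well. Tbr1, a transcription factor of early cortical neurons that was named after its value was seen, rose (0.58, SE 0.12, edgeR adjusted p = 0.0496). Nhlh2 (-0.07), Ebf1 (-0.09), Lhx9 (-0.14) and Cxcr4 (-0.11) did not pass. Without the library labelled wild type 2 (with Eed at the EedcKO level), 3 fell and 2 rose, without EedcKO 2 only 1 fell, and without EedcKO 3 none passed.

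Of 14 listed regulators of the choice between Cajal-Retzius and cortical fates, 4 rose and none fell. They were the proneural factor Neurog1 (1.48, from 58 and 97 counts to 165, 246 and 236), Eomes (1.16), Neurog2 (0.79) and Pax6 (0.65). Of these genes 7 rose without the library labelled wild type 2 (2.07% of all tested genes passed as higher in that fit), 4 without wild type 1 (3.01%) and 3 without EedcKO 1 (0.701%). None passed without EedcKO 2 (0.152%) or EedcKO 3 (0%).

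Marker lists of neighbouring regions also differed between libraries, and their part in the results above was not tested. The 16 cortical hem genes, all with counts, summed to 321 CPM in wild type 1, 976 CPM for the library labelled wild type 2, and 352, 460 and 140 in EedcKO 1, 2 and 3, and none of the 15 tested passed (Otx2 -1.47, Bmp4 -1.45, edgeR adjusted p = 0.126 and 0.213). The library labelled wild type 2 was therefore highest for both the hem list and Trp73. EedcKO 3, with 0 counts of Wnt3a and Ttr, was lowest for the hem list and Trp73 and highest for Reln. Wild type 1 had a lower hem sum than EedcKO 1 and 2 but more Trp73 than EedcKO 1 (61.8 CPM against 47.8). Its Trp73 count equalled that of EedcKO 2 (61.8 and 60.6 CPM). In EedcKO 3, Bmp7 (32.6 CPM) and Msx1 (14.6) exceeded wild type 1 (20.2 and 5.90). The other hem genes were lower there than in wild type 1. The 0 counts allow up to 0.615 CPM.
Of 14 genes of subpallial GABA neurons 6 fell, among them Lhx8 (-4.77), Slc32a1 (-1.07), Sp9 (-0.97) and Dlx5 (-0.92), and the list summed to 2399 and 1854 CPM in the wild-type libraries and 1069 to 1452 in EedcKO. Of 13 tested hypothalamic and diencephalic genes 2 fell (Otp and Fezf1), and the 20 listed summed to 556 and 552 CPM in the wild-type libraries and 154 to 241 in EedcKO, with Nr5a1 at 0 throughout. Both sums were lower in every EedcKO library, in the same direction as Lhx1, Lhx5 and Car10. Of the hypothalamic and diencephalic sum, Nkx2-1 (not passing) held 182 and 147 CPM in the wild-type libraries and 69.1, 1.45 and 1.23 in EedcKO. Otp had 90.2 CPM in wild type 1 but 17.3 for the library labelled wild type 2. Lhx9 (-0.14), Pmch (0.12) and Pomc (0.06) did not pass. Of the 13 genes tested, 5 were lower with no overlap (17.4% of all tested genes). Of 16 pan-neuronal genes 3 fell (Nefl -1.14, Syt1 -0.74, Mapt -0.53), and they summed to 4751 and 3917 CPM in the wild-type libraries and 3572 to 3838 in EedcKO.
Meningeal and mesenchymal genes had no call of 14 (Foxd1 -0.998, Prrx1 0.73) and summed to 450 CPM in wild type 1, 707 CPM for the library labelled wild type 2, and 503 to 984 over the EedcKO libraries. Of 8 tested genes of sensory ganglia and placodes Sox10 fell (-3.49), with the 12 listed at 101 to 175 CPM and Foxi1 at 0. Without EedcKO 3 no gene of these lists passed, and without EedcKO 2 only 2, both hypothalamic or diencephalic. Over all tested genes 2.17% passed as lower with all libraries, 1.19% without EedcKO 1 and 0.455% without EedcKO 2. List counts from different fits are therefore not directly comparable. Without the library labelled wild type 2, the subpallial list had 6 decreases, the hypothalamic and diencephalic list 4 and the pan-neuronal list 6. Without wild type 1 these were 4, 4 and 3, and without EedcKO 1 they were 7, 2 and 1. Beside 1 decrease, the sensory list had 2 increases without the library labelled wild type 2 and 1 without EedcKO 1. The hem and meningeal lists changed sides with the wild-type library kept, with 1 and 2 increases without the library labelled wild type 2, and 3 and 2 decreases without wild type 1.

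**Figure D4:**
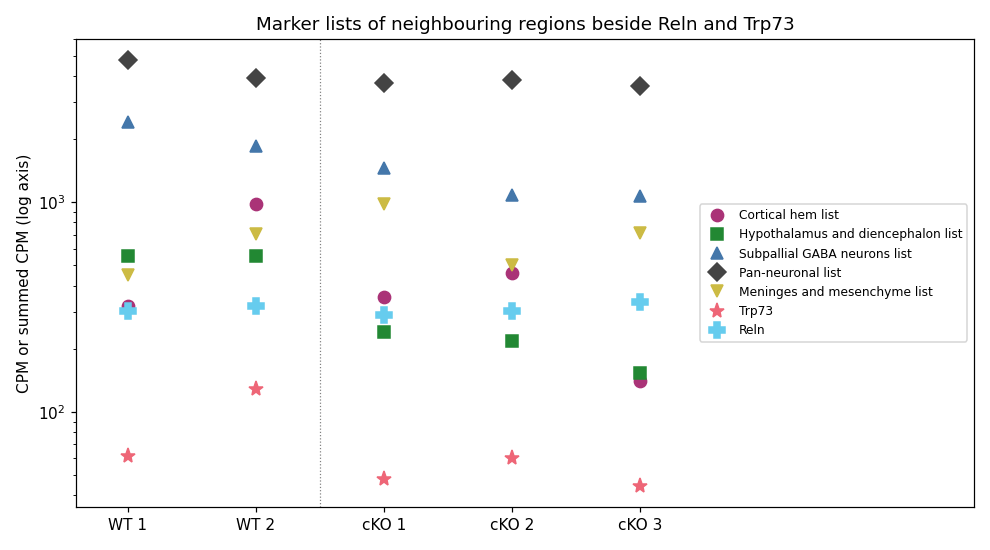
The y axis (log scale) gives the summed CPM of 5 marker lists, and the CPM of Reln and Trp73, in each library on the x axis, with a dotted line between the groups. The hem list and Trp73 are highest in the library labelled wild type 2 (976 and 127.9 CPM), the subpallial and diencephalic lists are lower in all EedcKO libraries, and Reln is level.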

How the data were processed

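Per the labels, polyadenylated RNA of E12.5 forebrain was extracted with Trizol and sequenced by the BGISEQ-500 procedure. The submitters' processing notes name HISAT2 2.2.0 and the build mm10. No source used here names the counting tool, its use of strand or the annotation. The authors deposited raw counts per gene and a table of TPM. Count columns summed to 16.1% to 16.8% of the 30000000 reads stated per sample.

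The 28277 rows without a symbol (2.01% to 2.16% of counts) were left out. Counts were tested in R 4.3.3 with edgeR 4.0.16 (filterByExpr, TMM, robust glmQLFit, glmQLFTest on group), Benjamini-Hochberg adjustment and a threshold of 0.05. The fit was also tested on simulated data for 13837 genes, EedcKO against wild type. It made 147 calls, 9 of them false, and found 40.3% of genes changed 1.5-fold, 72.7% at 2-fold and 96.9% at 4-fold. Each simulated gene had the spread fitted for its level, and no library was made to stand out. These shares may therefore not hold for the real libraries. Alternatives used DESeq2 1.42.0, limma 3.58.1 (voom, and trend on log2 of the deposited TPM with pseudocounts of 1 and 0.1), other scalings, no filter, embryo sex, a replicate block and each library left out; a lone wild-type library is then assumed to vary like the EedcKO group. Leaving libraries out for the other lists was chosen after seeing the data. Poisson intervals cover counting error only. Log2 profiles used a prior count of 2.

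Members and lists were chosen with earlier results of these data known. Named genes were the members, Eed, up to 4 genes past the threshold with the largest change per list or the 2 with the smallest p where none passed, and the 5 genes of mean log2 CPM at least 1 nearest to Reln, Trp73 and Lhx5, predicted genes left out. Tbr1, Vldlr, Lrp8, Dab1, Nhlh2, Ebf1, Lhx9, Cxcr4, Emx1, Dlx2, Wnt3a, Ttr, Bmp7, Msx1, Nkx2-1, Pmch and Pomc fall outside this rule and were named after their values were seen. Coordinates are 1-based, from GENCODE M21. Protein comparisons were not analysed here. A gene of the list of fate regulators is not reported here.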

Additional observations from a re-analysis of the deposited data

How the results depend on the processing

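Over all genes, 448 passed with edgeR. The count was 675 with library size alone, 677 with DESeq2, 198 and 213 with limma-trend on log2 TPM (pseudocounts 1 and 0.1), 42 with limma-trend without a filter, and 0 with embryo sex as a covariate. The same 0 came with the replicate block, where 2169 genes had an unadjusted p under 0.05. Leaving out 1 library gave 0 to 1012. For the 10 Cajal-Retzius cell genes the 5 decreases became 3 with limma-trend on log2 TPM at either pseudocount, 0 without its filter, 0 with embryo sex, 0 with the replicate block (7 at an unadjusted p under 0.05) and 0 to 6 with 1 library left out. The cause was not tested. Replicate numbers share no stated litter, and deviations of same-numbered libraries correlated at -0.04 and 0.13 across genes, so the numbers were not taken as pairs.

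Lhx1, Lhx5, Car10, Cacna2d2, Ebf3, Trp73 and Calb2 kept their direction under all alternatives run. Reln, Ebf2 and Ndnf, none of which passed the test, changed sign. With 1 library left out, the log2 fold change ran from -0.078 to 0.031 for Reln (above 0 without the library labelled wild type 2 or EedcKO 1), from -0.10 to 0.11 for Ebf2 (below 0 without EedcKO 1) and from -0.60 to 0.33 for Ndnf (above 0 without wild type 1 or EedcKO 3). Ndnf was also above 0 with embryo sex (0.42) and with the replicate block (0.0054). The ratios of Reln to Lhx1, Lhx5 and Car10 were higher in EedcKO by 1.43 to 1.88, 1.47 to 2.10 and 2.37 to 3.07 with 1 library left out. Those of Trp73 were higher by 0.20 to 1.57, 0.19 to 1.79 and 1.73 to 2.27. Depth limits Car10 most, at 8 to 18 counts in EedcKO.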
